A study of Mus musculus with 36 samples.

Results

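Kupffer cells, the resident macrophages of the liver, were followed through 10 of their marker genes, *Clec4f*, *Cd5l*, *Vsig4*, *Marco*, *Timd4*, *C1qa*, *C1qb*, *C1qc*, *Adgre1* and *Csf1r*, in the livers of mice with and without thyroid hormone receptor beta (THRB). The markers were found in the deposited count table by gene symbol, and each symbol matched 1 of its 54532 genes. All 10 were among the 17994 genes whose counts summed to at least 100 over all libraries, which were the genes tested. Between 54 and 5977 reads per library fell on a single marker.

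The data were read counts per gene from poly-A selected RNA of whole liver, with 1 library for each of 36 male mice. THRB KO mice lacked both isoforms of the receptor in all tissues (THRB-/-, line B6.129S1-Thrbtm1Df/J), so their Kupffer cells carried the deletion as well as their hepatocytes. The controls, called THRB WT here, were not wild type but heterozygous for the same allele (THRB+/-). All mice were on the C57Bl/6NCrl background, 2 to 3 months old, fed chow and kept under 12 h of light and 12 h of darkness. At each of 6 sampling times 4 h apart, from ZT2 to ZT22 (zeitgeber time, counted in hours from lights on), there were 3 mice per genotype with the letters a, b and c, which made 12 groups of 3 and 18 mice per genotype.

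Kupffer cells sit in the liver sinusoids, where they take up microbes, aged red blood cells and debris from portal blood. Signals from neighbouring endothelial, stellate and parenchymal cells set their identity, and signals through the receptor encoded by *Csf1r* keep them alive. In RNA of whole liver their transcripts are diluted by those of hepatocytes, and fewer Kupffer cells and less RNA per Kupffer cell cannot be told apart.

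Library totals lay between 29063273 and 42530551 counts. Levels are given as CPM, counts scaled to a common library size with edgeR's TMM factors, which lay between 0.941 and 1.06. No libraries held identical counts. *Thrb* was counted at 24.3 to 38.5 CPM in THRB WT and 26.2 to 37.7 CPM in THRB KO livers, and since counts per gene do not separate transcripts of the altered allele, it gave no check of the labels. The 10 markers summed to 237 to 773 CPM, and 8 hepatocyte markers, *Alb* among them, to 67200 to 99300 CPM. A single THRB WT mouse, mouse b at ZT18, stood apart, with the highest level of all 36 mice for 10 of 10 markers. Values without this mouse are given beside the results that it moved most.

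*Clec4f* encodes a C-type lectin made in mice almost only by Kupffer cells, and had the highest CPM of the 10 markers. It lies on chromosome 6 (83644542 to 83656187, minus strand, GRCm38). Its level ran from 63.4 over a median of 84.0 to 162 CPM in the 18 THRB WT livers and from 64.0 over a median of 87.4 to 124 CPM in the 18 THRB KO livers. The highest THRB WT value was that of mouse b at ZT18, and the ranges of the genotypes overlapped.

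For the scavenger and clearance proteins the ranges of the genotypes overlapped as well. *Cd5l* (chromosome 3, 87357881 to 87371073, plus strand) encodes AIM, a secreted protein of the scavenger receptor family, and ran from 39.3 over a median of 56.1 to 151 CPM in THRB WT and from 38.1 over a median of 52.0 to 106 CPM in THRB KO livers. *Marco* (chromosome 1, 120474538 to 120505024, minus strand) encodes a class A scavenger receptor that binds bacteria and particles, and ran from 2.02 over a median of 4.23 to 65.7 CPM in THRB WT and from 1.68 over a median of 4.25 to 16.5 CPM in THRB KO livers. Between the lowest and the highest of the 36 mice *Marco* differed 39.1-fold, against 2.56-fold for *Clec4f* and 3.95-fold for *Cd5l*. These folds were, without mouse b of THRB WT at ZT18, 19.7, 2.29 and 2.92. *Timd4* (chromosome 11, 46810800 to 46844332, plus strand) encodes a receptor for phosphatidylserine on dying cells that marks long-resident Kupffer cells. It ran from 3.32 over a median of 4.33 to 11.1 CPM in THRB WT and from 3.34 over a median of 4.38 to 7.42 CPM in THRB KO livers.

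*C1qa*, *C1qb* and *C1qc* encode the chains of C1q, the protein that starts the classical complement pathway. They lie beside each other on the minus strand of chromosome 4, within 18.7 kb (136880129 to 136898803). *C1qa* was at 30.6 to 79.4 CPM (median 39.6) in THRB WT and at 30.1 to 55.1 CPM (median 36.9) in THRB KO livers. *C1qb* was at 22.9 to 75.0 CPM (median 34.4) and 25.5 to 51.8 CPM (median 32.9), and *C1qc* at 25.8 to 79.6 CPM (median 37.2) and 27.6 to 51.9 CPM (median 35.4), in the same order of genotypes. For each chain the median was slightly lower in THRB KO livers and the ranges overlapped. *Vsig4* (chromosome X, 96247203 to 96293438, minus strand) encodes CRIg, a receptor with which Kupffer cells catch particles coated with complement, and ran from 10.1 over a median of 15.8 to 35.8 CPM in THRB WT and from 13.0 over a median of 15.0 to 26.2 CPM in THRB KO livers.

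*Adgre1* (chromosome 17, 57358691 to 57483527, plus strand) encodes F4/80, the surface protein by which mouse macrophages are commonly stained. It ran from 4.35 over a median of 7.27 to 23.8 CPM in THRB WT and from 4.81 over a median of 7.77 to 15.1 CPM in THRB KO livers. *Csf1r*, on chromosome 18, encodes the receptor for CSF1 and IL-34 and ran from 25.5 over a median of 33.9 to 90.2 CPM in THRB WT and from 24.6 over a median of 33.0 to 62.6 CPM in THRB KO livers. Its exons share 873 bases with *Hmgxb3* on the opposite strand, which was counted at 6.47 to 13.7 CPM. The libraries do not keep the strand, so the origin of reads from these bases is uncertain.

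**Figure D1:**
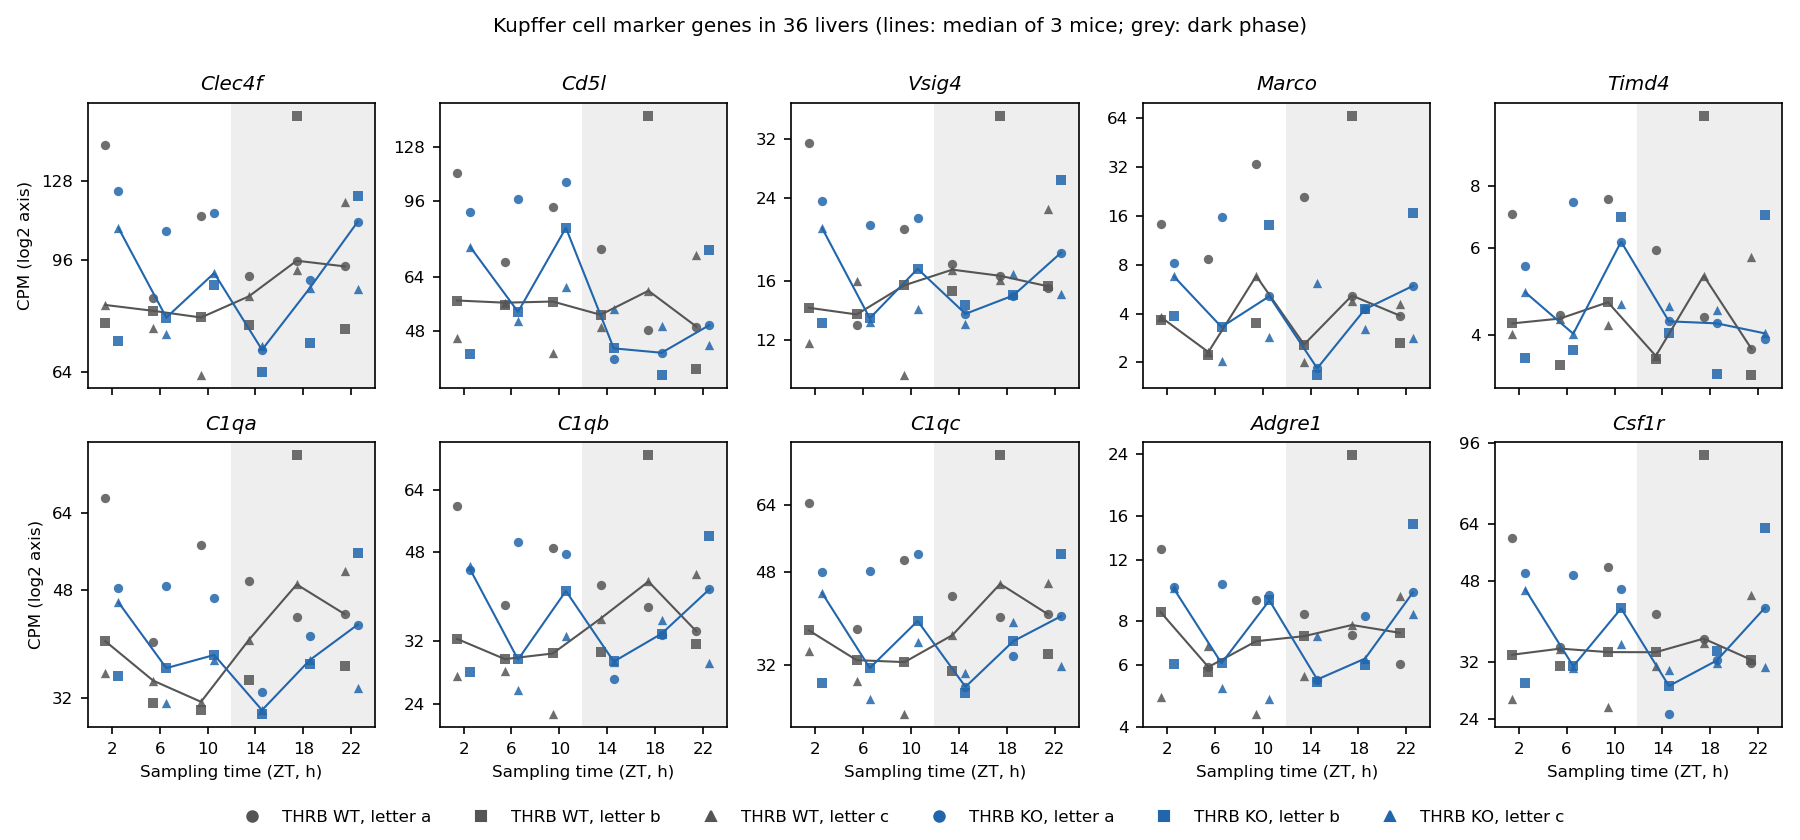
Level of the 10 Kupffer cell markers in each of 36 livers, in CPM on a log axis, against sampling time (ZT in hours). Points are single mice, with colour for genotype and symbol for the letter, lines join group medians, and grey marks the dark phase. Mouse b of THRB WT at ZT18 is the highest point in 10 of 10 panels, from 11.1 CPM for *Timd4* to 162 CPM for *Clec4f*.

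Levels of different genes were compared as CPM per kb of gene length. The median over 36 mice was 37.0 for *C1qa*, 35.1 for *Clec4f*, 30.6 for *C1qb*, 26.9 for *Cd5l*, 19.1 for *C1qc*, 10.5 for *Vsig4*, 6.89 for *Csf1r*, 2.25 for *Adgre1*, 2.21 for *Marco* and 2.00 for *Timd4*. The first 4 were close to each other: per kb, *C1qa* exceeded *Clec4f* in 29 of 36 mice, *Clec4f* exceeded *C1qb* in 28 and *C1qb* exceeded *Cd5l* in 26. The steps from *Cd5l* down to *C1qc*, *Vsig4*, *Csf1r* and *Adgre1* held in 36 of 36 mice each. At the low end there was no stable order, as *Adgre1* exceeded *Marco* in 16 and *Marco* exceeded *Timd4* in 20 of 36 mice.

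The bases around the start sites are shown for *Clec4f* and *Marco*, the markers that varied least and most between mice of a group, and for *C1qb* and *C1qc*, the neighbours whose levels ran most closely together. The sequences are those of RefSeq for GRCm38.p6, from 250 bases before the start site to 50 bases from it, 5′ to 3′ along the gene. Capitals mark 3 motifs searched on both strands: GAGGAA, found in sites of the macrophage factor PU.1, TGCTGA, found in sites of MAF family factors, and GTGGGAA, found in sites of the Notch pathway factor RBPJ. The windows, each on the minus strand, are chr6:83656067-83656366 for *Clec4f*, chr1:120504975-120505274 for *Marco*, chr4:136886151-136886450 for *C1qb* and chr4:136892865-136893164 for *C1qc*.
Clec4f: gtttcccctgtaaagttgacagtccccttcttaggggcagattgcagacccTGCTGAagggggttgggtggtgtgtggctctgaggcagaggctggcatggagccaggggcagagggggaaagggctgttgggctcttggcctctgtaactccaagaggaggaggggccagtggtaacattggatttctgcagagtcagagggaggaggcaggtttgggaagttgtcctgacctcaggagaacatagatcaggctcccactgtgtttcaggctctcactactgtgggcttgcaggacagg
Marco: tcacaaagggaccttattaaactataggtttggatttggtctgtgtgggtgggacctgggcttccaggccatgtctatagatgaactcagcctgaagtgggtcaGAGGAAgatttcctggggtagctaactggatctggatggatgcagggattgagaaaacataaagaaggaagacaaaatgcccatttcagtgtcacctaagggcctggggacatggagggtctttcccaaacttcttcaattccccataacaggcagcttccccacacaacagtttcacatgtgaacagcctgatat
C1qb: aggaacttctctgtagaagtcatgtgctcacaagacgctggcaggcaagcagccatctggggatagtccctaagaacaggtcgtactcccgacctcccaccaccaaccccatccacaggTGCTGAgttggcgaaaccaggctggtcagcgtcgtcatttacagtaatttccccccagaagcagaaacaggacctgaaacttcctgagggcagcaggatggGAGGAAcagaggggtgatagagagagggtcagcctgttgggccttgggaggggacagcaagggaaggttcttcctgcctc
C1qc: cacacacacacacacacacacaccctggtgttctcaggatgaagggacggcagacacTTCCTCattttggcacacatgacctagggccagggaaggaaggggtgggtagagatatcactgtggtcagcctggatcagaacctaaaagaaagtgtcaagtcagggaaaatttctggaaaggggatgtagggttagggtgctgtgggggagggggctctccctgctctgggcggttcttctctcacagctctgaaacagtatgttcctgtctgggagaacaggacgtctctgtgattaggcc
The *Clec4f* window held the MAF letters at -199 from the start site. *Marco* held the PU.1 letters at -146, *C1qc* held them at -193 on the opposite strand, and *C1qb* had PU.1 letters at -30 and MAF letters at -131. Of the 7 markers searched, 5 held the PU.1 letters (*Cd5l*, *Vsig4*, *Marco*, *C1qb* and *C1qc*), against 28.1% of all 32544 windows of this length. The MAF letters were in 5 of 7 (*Clec4f*, *Cd5l*, *Vsig4*, *Timd4* and *C1qb*), against 19.5% of all windows. The RBPJ letters were in 0 of 7 and in 6.39% of all windows. The motifs share no bases in these windows, and a match describes letters only. *C1qa*, *Adgre1* and *Csf1r* were not searched.

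Whether loss of THRB changed the markers was asked first across the day, in a model with a term for each sampling time. None of the markers passed an adjusted p of 0.05 in the quasi-likelihood test of edgeR (Benjamini-Hochberg adjustment over all genes) (0 of 10, against 0.950% of all genes tested), and the adjusted p-values lay between 0.554 and 0.958. An unadjusted p under 0.05 was found for 0 of 10 markers and for 12.1% of all genes, and DESeq2 called 0 of 10 markers. The smallest p was that of *C1qa*, with 44.0 ± 13.2 CPM in THRB WT and 39.0 ± 7.19 CPM in THRB KO livers (SD, n = 18 each). Its log2 fold change of THRB KO over THRB WT was -0.16 (95% interval -0.37 to 0.045, adjusted p = 0.554 in the quasi-likelihood test of edgeR (Benjamini-Hochberg adjustment over all genes)).

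How large a difference the data leave possible varied among the markers. The log2 fold change was -0.056 for *Clec4f* (95% interval -0.26 to 0.15), -0.12 for *C1qc* (-0.35 to 0.10) and -0.068 for *C1qb* (-0.32 to 0.18). It was -0.12 for *Cd5l* (-0.45 to 0.20), -0.060 for *Csf1r* (-0.33 to 0.21), -0.059 for *Vsig4* (-0.32 to 0.20), -0.049 for *Timd4* (-0.33 to 0.23) and -0.037 for *Adgre1* (-0.37 to 0.30). *Marco* was determined least well, at -0.57 (-1.50 to 0.36). All 10 values were below 0, with a median of -0.064, as were 50.5% of those of all genes, whose median was -0.0011. Without mouse b at ZT18, 4 of 10 were below 0, the median was 0.0017 and *Marco* stood at -0.18. The markers moved together between mice, so their common sign is not 10 separate observations.

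At single sampling times 3 mice were set against 3, with the spread taken from all 12 groups. The quasi-likelihood test of edgeR (Benjamini-Hochberg adjustment over all genes) called 0 of 10 markers at each time and DESeq2 likewise. Over all genes edgeR called 0.0278% at ZT2, 0.0111% at ZT6, 0.0167% at ZT10, 0.0167% at ZT14, 0.0222% at ZT18 and 0.0222% at ZT22. The median log2 fold change of the 10 markers was -0.031 at ZT2, 0.15 at ZT6, 0.18 at ZT10, -0.33 at ZT14, -0.67 at ZT18 and 0.15 at ZT22. An unadjusted p under 0.05 was found for 9 markers at ZT18 and 0 at each of the other 5 times, where 5.43% of all genes at ZT2, 4.37% at ZT6, 4.12% at ZT10, 5.34% at ZT14 and 4.73% at ZT22 had one.

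ZT18 had the largest differences, and mouse b of THRB WT decided their size. *Cd5l* had 48.4, 151 and 59.6 CPM in THRB WT mice a, b and c and 42.9, 38.1 and 49.3 CPM in THRB KO mice. *Marco* had 5.16, 65.7 and 4.74 CPM in THRB WT and 4.25, 4.25 and 3.21 CPM in THRB KO mice. *C1qa* had 43.2, 79.4 and 48.9 CPM in THRB WT and 40.4, 36.4 and 36.9 CPM in THRB KO mice. In each case THRB WT mouse b was far above the other 5 mice. For *Marco* and *C1qa* all 3 THRB KO mice were below all 3 THRB WT mice, while for *Cd5l* the groups overlapped. Such an order was found for 6 of 10 markers (*Clec4f*, *Marco*, the 3 C1q chains and *Csf1r*) and for 5.16% of all genes. The markers moved together between mice, so these are not 6 separate observations.

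The log2 fold change at ZT18 was -0.99 for *Cd5l* (95% interval -1.75 to -0.23), -2.70 for *Marco* (-4.81 to -0.59) and -0.59 for *C1qa* (-1.10 to -0.091). The 9 markers with an unadjusted p under 0.05 compare with 5.36% of all genes (2.66% with a lower level in THRB KO livers), and *Vsig4* was the exception. The adjusted p-values were between 0.839 and 0.960 in the quasi-likelihood test of edgeR (Benjamini-Hochberg adjustment over all genes). Without mouse b of THRB WT, 0 of 10 markers had an unadjusted p under 0.05 (4.44% of all genes). The log2 fold changes were then -0.32 for *Cd5l*, -0.34 for *Marco* and -0.28 for *C1qa*, and 10 of 10 were still below 0 (49.9% of all genes, and 51.0% with all mice), from -0.34 to -0.072. As across the day, this common sign is not 10 separate observations.

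**Figure D2:**
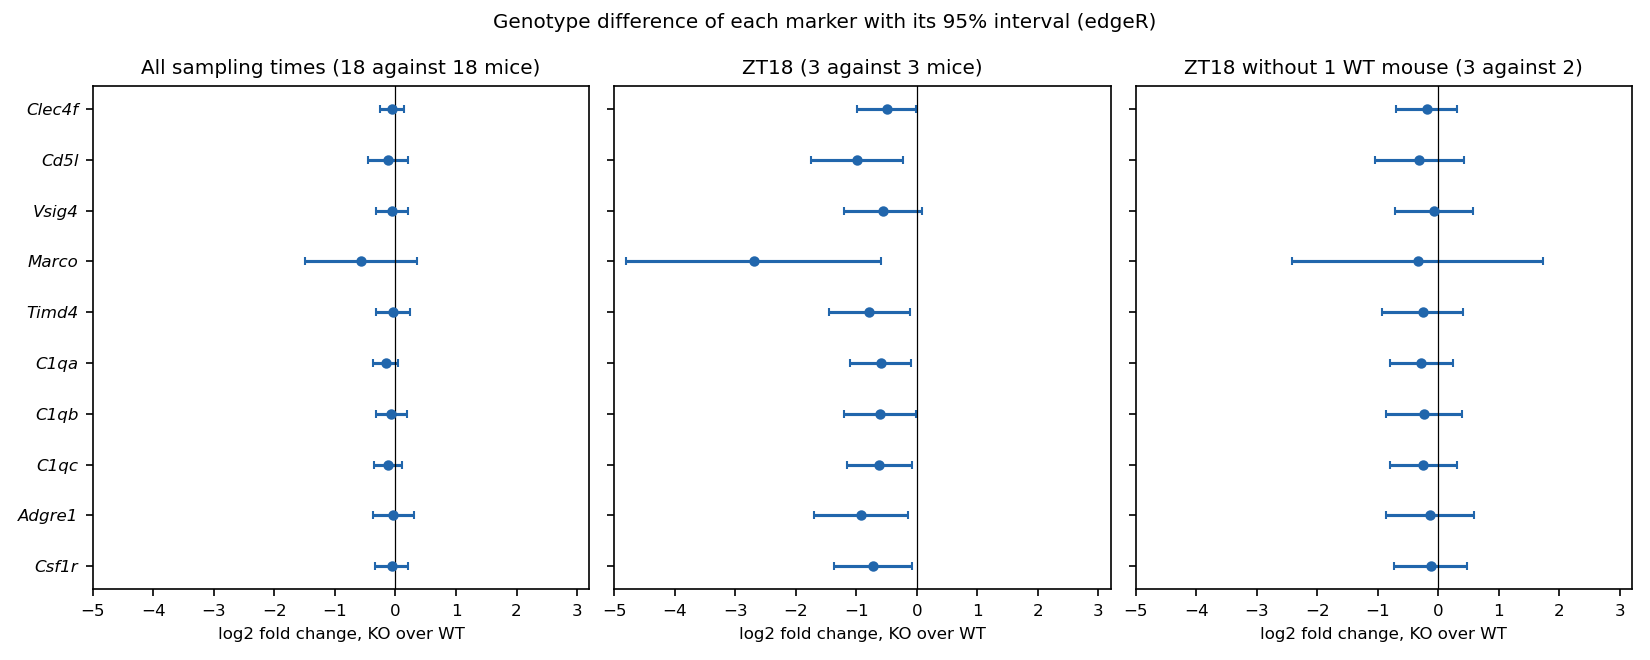
Log2 fold change of THRB KO over THRB WT livers for the 10 Kupffer cell markers, with 95% intervals from edgeR, over all sampling times, at ZT18, and at ZT18 without mouse b of THRB WT. *Marco* moves from -2.70 at ZT18 to -0.34 without that mouse.

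At ZT14 the 10 log2 fold changes were below 0 as well (50.3% of all genes), from -1.37 to -0.032. *C1qa* had 49.5, 34.2 and 39.8 CPM in THRB WT mice a, b and c and 32.7, 30.1 and 30.6 CPM in THRB KO mice. *Clec4f* had 90.6, 76.0 and 84.3 CPM in THRB WT and 69.4, 64.0 and 70.5 CPM in THRB KO mice. For both genes all 3 THRB KO mice were below all 3 THRB WT mice, as for 6 of 10 markers and 5.39% of all genes. Here too the markers moved together, so neither their sign nor this order is a set of separate observations. *Marco* had 20.9, 2.58 and 2.02 CPM in THRB WT and 1.84, 1.68 and 6.13 CPM in THRB KO mice, so its groups overlapped and mouse a of THRB WT stood far above the others. The log2 fold change was -0.40 for *C1qa* (-0.91 to 0.10) and -0.30 for *Clec4f* (-0.79 to 0.19), and the smallest adjusted p of a marker was 0.940 in the quasi-likelihood test of edgeR (Benjamini-Hochberg adjustment over all genes). Without the mice of letter a, *C1qa* was at -0.29 and *Clec4f* at -0.25, while *Marco* turned to 0.78 and *Timd4* to 0.26.

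Whether the genotype difference varied with sampling time was tested by 5 interaction terms. The quasi-likelihood test of edgeR (Benjamini-Hochberg adjustment over all genes) called 0 of 10 markers and 0.00% of all genes. An unadjusted p under 0.05 was found for 0 of 10 markers and 2.69% of all genes, and DESeq2 called 0 of 10 markers. The differences between ZT18 and the other times are therefore not shown to exceed the spread between mice.

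The next question was whether the markers follow the time of day. Sine and cosine terms with a period of 24 h were fitted, and 50.5% of all genes passed over both genotypes in the quasi-likelihood test of edgeR (Benjamini-Hochberg adjustment over all genes), but 0 of 10 markers. An unadjusted p under 0.05 was found for 0 of 10 markers and 56.2% of all genes. Within THRB WT livers 0 of 10 markers passed (35.1% of all genes), and within THRB KO livers 0 of 10 (31.5%), with 0 and 1 marker at an unadjusted p under 0.05 (44.1% and 40.7% of all genes). DESeq2 called 0 of 10 in each of these comparisons, with 1, 2 and 1 markers at an unadjusted p under 0.05. A difference of the rhythm between genotypes was called for 0 of 10 markers by both tools (0.00% of all genes by edgeR), with 0 of 10 at an unadjusted p under 0.05 (3.07% of all genes).

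The amplitudes fitted to log2 CPM were small beside the spread between mice. Over both genotypes the amplitude was 0.16 for *Clec4f* (95% interval 0.0052 to 0.31, highest at ZT23.0), 0.25 for *Adgre1* (0.016 to 0.48, ZT21.7), 0.15 for *C1qa* (0 to 0.30, ZT21.8) and 0.047 for *Timd4* (0 to 0.24). An amplitude cannot be below 0, and intervals were truncated there. The intervals came from a separate least-squares fit to log2 CPM. An interval above 0 is therefore not a test of rhythm, for which the edgeR results above stand. *Cd5l* had an amplitude of 0.37 in THRB KO livers (0.081 to 0.66, highest at ZT6.15) and of 0.042 in THRB WT livers (0 to 0.42). The difference of its rhythm between genotypes did not pass the edgeR test. *Cd5l* passed in THRB KO livers when these 18 libraries were fitted alone (adjusted p = 0.0470 in the quasi-likelihood test of edgeR (Benjamini-Hochberg adjustment over all genes)), where 32.1% of all genes passed. Without mouse b of THRB WT at ZT18 it passed in THRB KO livers (adjusted p = 0.0497 in the same edgeR test) and over both genotypes (adjusted p = 0.0431), where 31.8% and 50.1% of all genes passed. In THRB WT livers 0 of 10 markers passed without that mouse (34.1% of all genes).

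The calls of rhythm depended on the mice of letter a. The labels do not say what the letters stand for, but mouse a had the highest mean of the 10 markers in 6 of 6 groups from ZT2 to ZT10 and in 8 of 12 groups in all. *C1qa*, for example, had 67.6, 39.6 and 35.1 CPM in THRB WT mice a, b and c at ZT2 and 48.6, 35.8 and 31.4 CPM in THRB KO mice at ZT6. The animal numbers in the labels were lower for every mouse of letter a than for any mouse of letters b and c. Within each letter, the mice of ZT2 to ZT10 and of ZT14 to ZT22 had separate ranges of numbers. Light or dark phase and letter can therefore not be fully told apart from whatever these numbers stand for. Without the mice of letter a, *Vsig4*, *C1qa*, *C1qb*, *C1qc* and *Adgre1* passed over both genotypes in the quasi-likelihood test of edgeR (Benjamini-Hochberg adjustment over all genes) (5 of 10, against 43.2% of all genes), with highest points between ZT19.4 and ZT20.4. Within THRB WT livers *Clec4f*, *Vsig4*, *Marco*, *C1qa*, *C1qb* and *C1qc* passed (6 of 10, against 26.4%), and within THRB KO livers 0 of 10 (20.4%). These calls in turn rested in part on mouse b of THRB WT at ZT18. When it was left out as well, *C1qa* and *C1qc* passed over both genotypes (2 of 10, against 41.8%), *C1qa* in THRB WT livers (1 of 10, against 23.6%, adjusted p = 0.0340 in the same edgeR test) and 0 of 10 in THRB KO livers (20.3%).

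Mice that shared genotype and time of day differed in these markers more than in most genes. After the mean of each of the 12 groups was subtracted, the SD of log2 CPM was 1.29 for *Marco*, 0.49 for *Adgre1*, 0.48 for *Cd5l* and 0.31 for *Clec4f*, the lowest of the 10. Over 12641 genes with a mean of at least 1 CPM the median SD was 0.18. *Clec4f* exceeded 80.1% of these genes and *Marco* 99.6%. The SD was 1.15 for *Marco* and 0.29 for *Clec4f* without mouse b of THRB WT at ZT18.

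The markers rose and fell together between mice. Over 36 mice and 45 pairs of markers, Pearson's r of these group-centred values lay between 0.66 and 0.98 with a median of 0.90, and Spearman's rho between 0.61 and 0.96 with a median of 0.86. A two-sided permutation test within groups with 100000 resamples gave an adjusted p of at most 0.00150 for r and 0.00260 for rho (Benjamini-Hochberg over 45 pairs). For 29 pairs the permutation p of r was 1e-05, the smallest that these resamples can give. With the 2 mice farthest from the median of the first gene left out, r was above 0 for 45 of 45 pairs, with a lowest value of 0.56. Without mouse b of THRB WT at ZT18, r lay between 0.56 and 0.98. The genes come from the same libraries, and what moved them together was not tested.

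*C1qb* and *C1qc*, whose start sites are printed here, were the closest pair (r = 0.98, rho = 0.96, permutation p = 1e-05 for both, r = 0.98 without the 2 farthest mice). *Cd5l* and *C1qc*, on different chromosomes, were nearly as close (r = 0.96, rho = 0.92, permutation p = 1e-05 for both, r = 0.95 without the 2 mice). The loosest pair was *Vsig4* and *Marco* (r = 0.66, permutation p = 0.00150, rho = 0.61, permutation p = 0.00260, r = 0.56 without the 2 mice), followed by *Clec4f* and *Marco* (r = 0.70, rho = 0.70, permutation p = 0.00015 for both, r = 0.63 without the 2 mice).

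**Figure D3:**
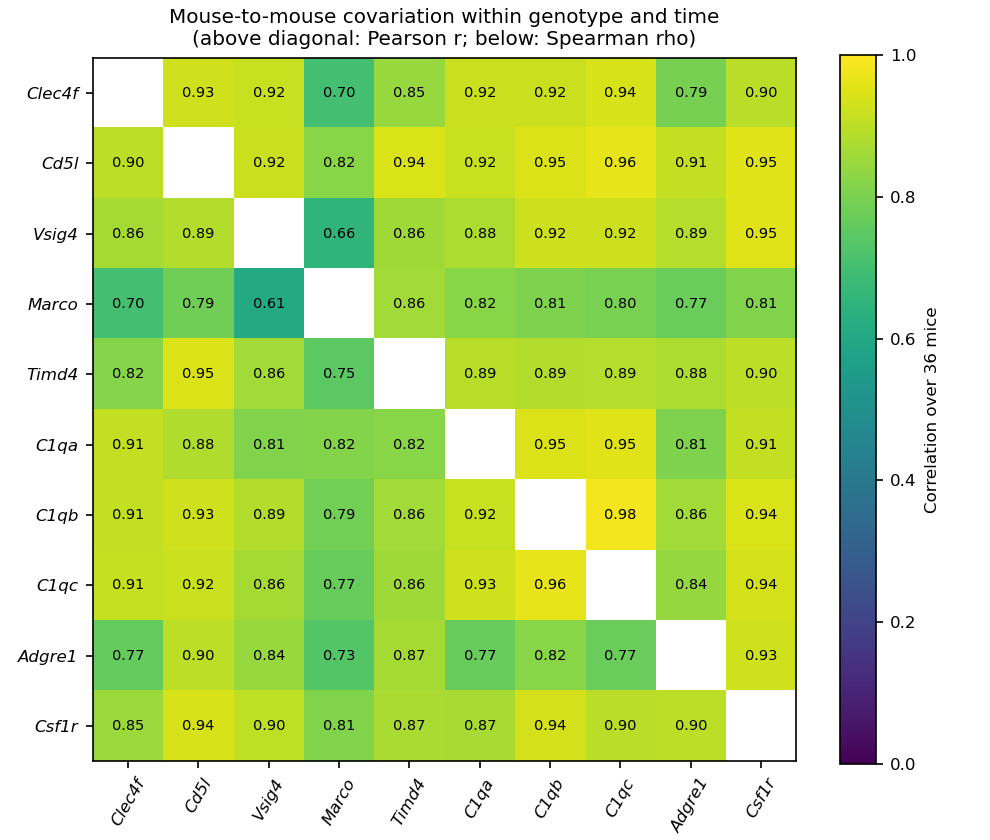
Correlation of the 10 Kupffer cell markers between 36 mice after group means were subtracted, with Pearson's r above the diagonal and Spearman's rho below it, and colour from 0 to 1. The lowest values belong to *Marco*, down to 0.66 for r and 0.61 for rho.

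The size of the common movement differed between the markers. For each log2 unit in the mean of the other 9 markers, *Marco* moved by 2.78 (standard error 0.41), *Cd5l* by 1.04 (standard error 0.054), *Adgre1* by 0.97 (standard error 0.10), *Csf1r* by 0.85 (standard error 0.051), *C1qa* by 0.64 (standard error 0.048) and *Clec4f* by 0.59 (standard error 0.061). *Marco* had the steepest and *Clec4f* the shallowest of the 10 slopes, and without mouse b of THRB WT at ZT18 they were 2.61 and 0.609. Each slope was taken on a different mean, and *Marco*, with the largest SD, was part of that mean for every marker but itself. The slopes are therefore not on a common scale. They are a description and were not tested against each other.

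**Figure D4:**
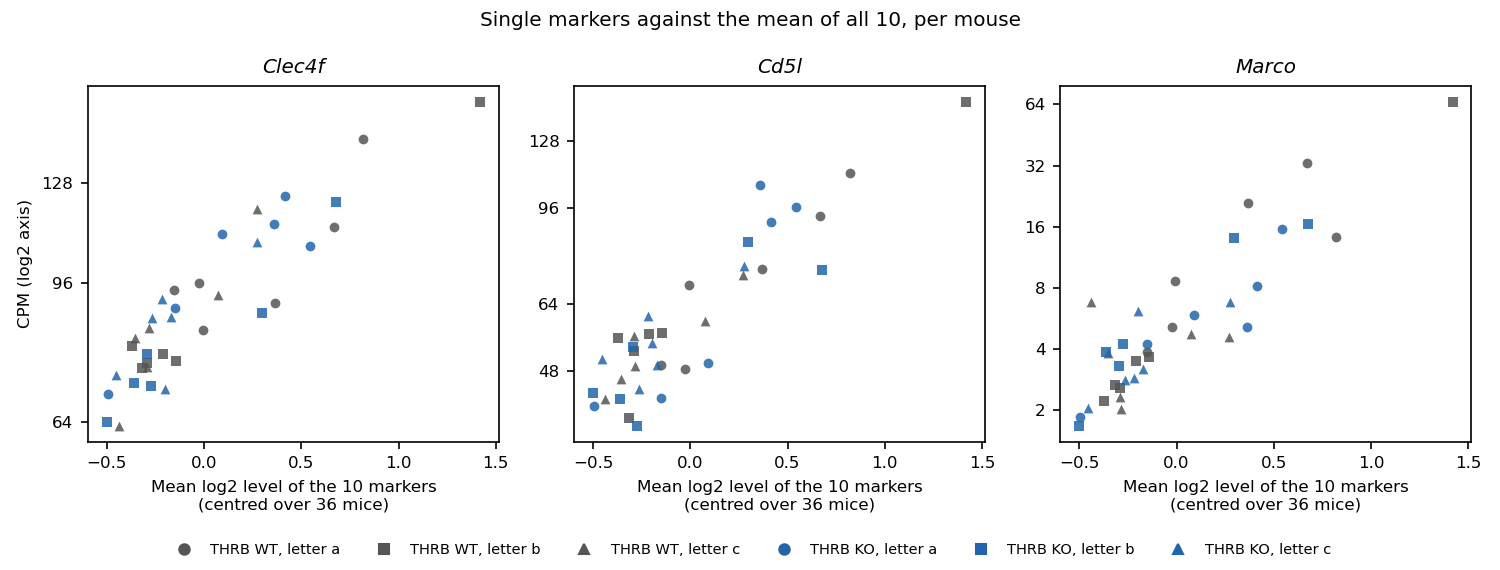
Level of *Clec4f*, *Cd5l* and *Marco* (CPM, log2 axes of different span) against the mean log2 level of the 10 Kupffer cell markers, centred over 36 mice. Points are mice, with colour for genotype and symbol for the letter, and *Marco* spans 1.68 to 65.7 CPM where *Clec4f* spans 63.4 to 162 CPM.

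Which other genes moved with the markers was described by the r of each gene with the mean of the 10 standardised markers over 36 mice, after group means were subtracted and with no test. Its median over genes with a mean of at least 1 CPM was -0.040, and its 95th percentile 0.40. The 5 most similar genes were *Itgal* (0.95), a leukocyte integrin chain, *Cd68* (0.94), a lysosomal protein of macrophages, *Ctss* (0.94), the protease cathepsin S, *Cfp* (0.93), the complement activator properdin, and *Cybb* (0.93), a subunit of the phagocyte oxidase. They ranged from 6.05 to 22.3 CPM for *Itgal* and from 16.5 to 46.1 CPM for *Cfp*.

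Lists of genes of other cell types were set beside the markers by the same r. Of 18 pan-macrophage and myeloid genes 16 had an r over 0.5 (median 0.87), and of 13 other Kupffer cell genes 12 (median 0.75), from 0.36 for *Slc40a1*, the iron exporter, to 0.91 for *Sdc3*. Without mouse b of THRB WT at ZT18, *Cd163* (0.44), *Cd207* (0.40) and *Msr1* (0.39) were no longer over 0.5. The median of the other Kupffer cell genes was then 0.68. With all mice, 1 of the 9 tested monocyte and recruited macrophage markers had an r over 0.5 (median 0.41). Their summed level was 16.8 to 42.6 CPM in THRB WT and 15.1 to 37.3 CPM in THRB KO livers. Defining genes were near 0, with *Ccr2*, the chemokine receptor of recruited monocytes, at 0.498 to 1.99 CPM and *Gpnmb* at 0 to 0.525 CPM, and most of the sum was *Cd9* at 8.87 to 33.3 CPM. Of 8 neutrophil markers 3 were tested (summed level 1.52 to 4.98 CPM), and 2 had an r over 0.5.

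For the other cell types the median r was -0.027 for 12 sinusoidal endothelial, -0.046 for 12 stellate cell, -0.014 for 6 cholangiocyte and -0.11 for 8 hepatocyte markers. It was 0.11 for 6 B cell, 0.35 for 9 tested T and NK cell and 0.23 for 8 red blood cell markers. In these 7 lists 0 genes had an r over 0.5 with all 36 mice. With mouse b of THRB WT at ZT18 left out, the median r was -0.21 for the endothelial and -0.20 for the stellate cell markers, and 0.84 for the pan-macrophage genes. It was 0.24 for B cell, 0.28 for T and NK cell, 0.335 for red blood cell, 0.039 for cholangiocyte and -0.19 for hepatocyte markers. Of the T and NK cell list *Nkg7* (0.58) and *Cd3g* (0.51) then passed 0.5. Their highest levels were 0.753 and 0.726 CPM. The total counts of the libraries had an r of 0.040 and a rho of -0.035 with the mean of the markers over 36 mice, given with no test.

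**Figure D5:**
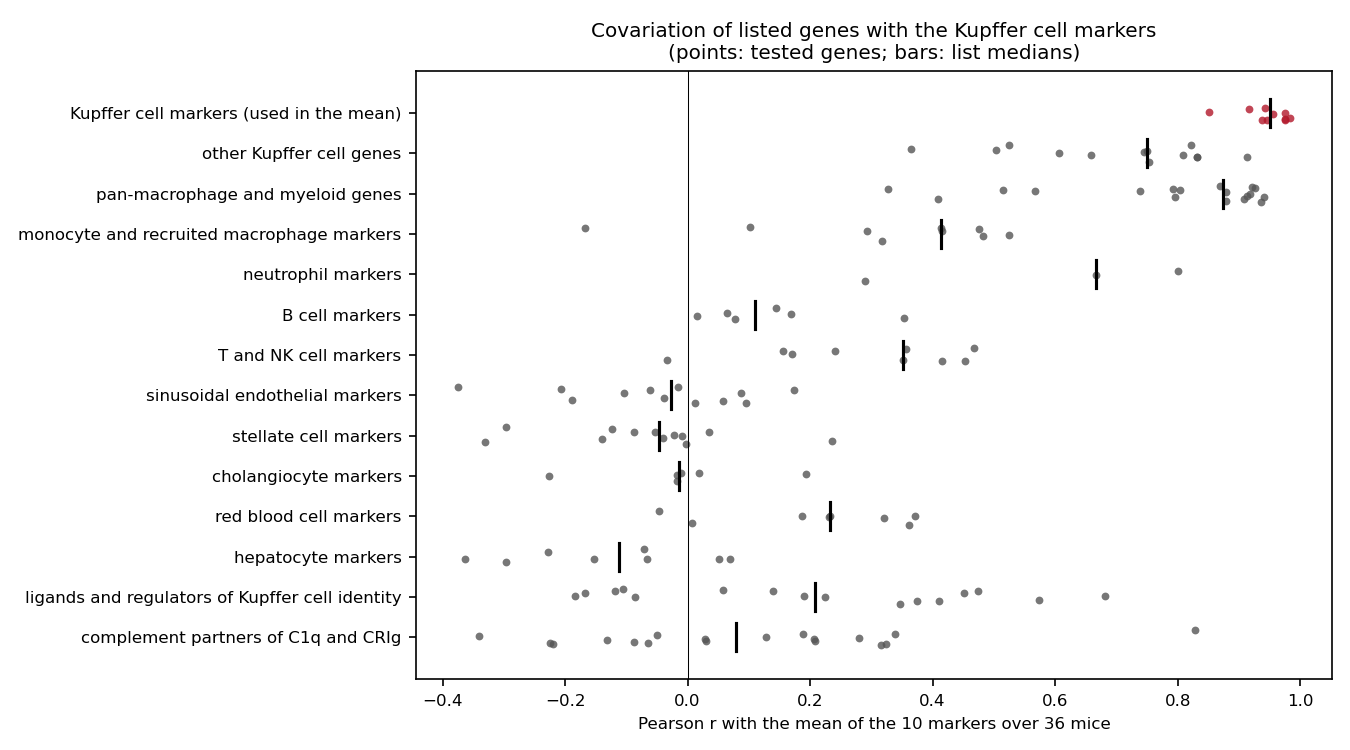
Pearson's r of the tested genes of each list with the mean of the 10 Kupffer cell markers over 36 mice, after group means were subtracted. Points are genes, marks are list medians, and the 10 markers themselves enter the mean. The macrophage lists have medians of 0.75 and 0.87, and the endothelial list -0.027.

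Mouse b of THRB WT at ZT18 had a summed marker level of 773 CPM, against 333 and 358 CPM in mice a and c. It was above both for 10 of 10 markers, 13 of 13 other Kupffer cell genes, 17 of 18 pan-macrophage genes, 11 of 12 sinusoidal endothelial and 7 of 12 stellate cell markers, and for 36.4% of all genes tested. The median log2 difference from the other mice of its group was 1.17 for the markers, 0.98 for the pan-macrophage genes, 0.82 for the other Kupffer cell genes, 0.44 for endothelial, 0.28 for stellate cell, -0.011 for hepatocyte and -0.55 for B cell markers. Among the 10 markers it was largest for *Marco* (3.72) and smallest for *Clec4f* (0.78). The part of endothelial or other cells in this was not tested.

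The other Kupffer cell and pan-macrophage lists gave 0 genotype calls across the day. Of 13 other Kupffer cell genes 0 passed in the quasi-likelihood test of edgeR (Benjamini-Hochberg adjustment over all genes), against 0.950% of all genes. Against 12.1% of all genes, 1 of the 13 had an unadjusted p under 0.05. This was *Cd163*, the receptor that clears haemoglobin, with 11.01 ± 4.81 CPM in THRB WT and 8.43 ± 1.74 CPM in THRB KO livers (SD, n = 18 each, adjusted p = 0.281 in the quasi-likelihood test of edgeR (Benjamini-Hochberg adjustment over all genes)). Without mouse b of THRB WT at ZT18, which had its highest level, *Cd163* had 10.1 ± 2.92 CPM in 17 THRB WT livers (SD, adjusted p = 0.379 in the same edgeR test). *Slc40a1* was then the 1 gene of the 13 with an unadjusted p under 0.05. It had 137 ± 38.6 CPM in 17 THRB WT and 155 ± 44.0 CPM in 18 THRB KO livers (SD, adjusted p = 0.214 in the same edgeR test). Of 18 pan-macrophage genes, with all mice, 0 passed and 0 had an unadjusted p under 0.05 (0.950% and 12.1% of all genes). At ZT18 the median log2 fold change was -0.57 for the other Kupffer cell genes and -0.53 for the pan-macrophage genes, with 13 of 13 and 18 of 18 below 0 (51.0% of all genes). Without mouse b the medians were -0.17 and -0.18, with 10 of 13 and 14 of 18 below 0 (49.9% of all genes). In both lists 0 genes passed at ZT18 (0.0222% of all genes). An unadjusted p under 0.05 was found there for 5 of 13 and 7 of 18 (5.36% of all genes). Without mouse b it was found for 0 of 13 and 1 of 18 (4.44% of all genes). Most of these genes moved with the markers between mice, so neither their signs nor these counts are separate observations. Across the day *Ccr2* had 0.938 ± 0.276 CPM in THRB WT and 1.25 ± 0.307 CPM in THRB KO livers (SD, n = 18 each, adjusted p = 0.0915 in the quasi-likelihood test of edgeR (Benjamini-Hochberg adjustment over all genes)), the smallest p of the monocyte list. Without mouse b of THRB WT at ZT18 it had 0.901 ± 0.234 CPM in 17 THRB WT livers (SD, adjusted p = 0.0516 in the same edgeR test).

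Daily rhythms over both genotypes were called for 4 of 13 other Kupffer cell genes, against 50.5% of all genes. *Slc40a1* had an amplitude of 0.36 log2 units with its highest point at ZT8.06, and *Slc15a3*, a peptide transporter, one of 0.42 at ZT1.48. Of this list *Slc40a1* moved least with the markers between mice (r = 0.365, and 0.175 without mouse b of THRB WT at ZT18). Which cells its reads came from was not tested. *Cd207* and *Cd300ld* were highest at ZT21.5 and ZT21.6. Of the 18 pan-macrophage genes 1 passed, *Fcer1g*, a signalling chain of Fc receptors (amplitude 0.44). Without mouse b of THRB WT at ZT18, 5 of 13 other Kupffer cell and 2 of 18 pan-macrophage genes passed (50.1% of all genes).

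Ligands and regulators of Kupffer cell identity came from several cell types. Of 16 tested, 0 differed by genotype in the quasi-likelihood test of edgeR (Benjamini-Hochberg adjustment over all genes) (unadjusted p under 0.05 for 1, against 12.1% of all genes), and 8 had a daily rhythm over both genotypes, near the 50.5% of all genes. *Csf1*, a ligand of the receptor encoded by *Csf1r*, had an amplitude of 0.35 log2 units with its highest point at ZT17.4 (adjusted p = 2.13e-06 in the same edgeR test), and its r with the markers between mice was -0.085. *Tgfb1*, named after its value was seen, had the highest r of this list, 0.68.

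Of 18 complement partners of C1q and CRIg, 1 differed by genotype, against 0.950% of all genes. *C2*, a protease of the classical pathway, had 42.2 ± 5.68 CPM in THRB WT and 35.7 ± 5.47 CPM in THRB KO livers (SD, n = 18 each). The log2 fold change of *C2* was -0.24 ± 0.055 (standard error, adjusted p = 0.0183 in the quasi-likelihood test of edgeR (Benjamini-Hochberg adjustment over all genes)). The r of *C2* with the markers between mice was 0.28. The highest r of the list, 0.83, was that of *Itgb2*, a leukocyte integrin chain named after its value was seen, and the lowest, -0.34, that of *C1s1*, which encodes a protease bound by C1q. A daily rhythm over both genotypes was called for 8 of 18, near the 50.5% of all genes.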

How the data were processed

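Read pairs of the non-directional poly-A libraries were cleaned of adapter and poor-quality reads by the authors and aligned with HISAT2 (GRCm38), and featureCounts gave the counts, deposited unnormalized for 54532 genes with 1 column per mouse. Versions, annotation release, strand setting and the treatment of reads with several matches are not given in the sources used here.

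Genotype, sampling time and letter came from the labels. Genes whose counts summed to at least 100 were tested by edgeR 4.0.16 (glmQLFit and glmQLFTest, TMM, limma 3.58.1, R 4.3.3), with Benjamini-Hochberg adjustment over 17994 genes and a threshold of 0.05. Log2 CPM values used a prior count of 2. Rhythms were fitted with a period of 24 h, with amplitudes and correlations computed in Python 3.11.15 (numpy 2.4.6, scipy 1.17.1, pandas 2.3.3, matplotlib 3.10.9). The scripts were tested on simulated data. Mice were not paired by letter, since the labels do not say what a letter stands for. The p-values therefore take no account of the likeness between mice of the same time and letter that is described at the end. P-values at single sampling times and of the interaction rest on the spread between the 3 mice of each group. In the other edgeR models that spread also holds differences between groups that the model has no term for. P-values of correlations came from permutation within groups.

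The markers and lists were chosen with earlier results of these data known. Named from each list were the genes called in a comparison, at most 4 by smallest p, or else the one with the smallest p, and the 5 genes most like the markers. 1 gene that this rule names is not reported here. *Gpnmb*, *Sdc3* as the highest r of its list, *Tgfb1*, *Itgb2*, *C1s1* and the r of other genes were picked after their values were seen. The alternatives were DESeq2 1.42.0, its size factors, no filter on low counts, pooled sampling times, another prior count, single genotypes, pairing by letter and omission of each letter in turn. Leaving out mouse b of THRB WT at ZT18, alone or together with the mice of letter a, was added after seeing the data. The lipidome and cell culture data were not analysed here.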

Additional observations from a re-analysis of the deposited data

How the results depend on the processing

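No marker differed by genotype under any alternative run, over all times or at single times. Over the alternatives that leave out the mice of 1 letter or mouse b of THRB WT at ZT18 alone, the log2 fold change across the day ran from -0.080 to 0.0019 for *Clec4f*, -0.063 to 0.026 for *Vsig4*, -0.056 to 0.049 for *Timd4*, -0.095 to 0.0016 for *C1qb*, -0.087 to 0.10 for *Adgre1*, -0.10 to 0.045 for *Csf1r* and -0.78 to 0.17 for *Marco*. The values above 0 were those without this mouse, for *Marco* that without letter a, and for *Adgre1* also that without letter b (0.091). Leaving out the mice of 1 letter gave 0 to 5 markers with a daily rhythm over both genotypes and 0 to 6 in THRB WT livers. Without mouse b of THRB WT at ZT18 there was 1 over both genotypes and 1 in THRB KO livers, and with the mice of letter a left out as well there were 2 over both genotypes and 1 in THRB WT livers. THRB KO libraries fitted alone gave 1. The cause of these changes was not tested, though each alternative also leaves fewer mice. Without the mice of letter a 38 of 45 pairs of markers passed the permutation test, and without letter b 44.

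With a replicate block that paired mice by sampling time and letter, 387 genes were called by genotype, against 171 without it, and 0 of 10 markers, and *Adgre1* turned to 0.0032. At ZT18 the markers with an unadjusted p under 0.05 fell from 9 to 6 with the block, *Marco*, *Adgre1* and *Csf1r* no longer among them. Of all genes, 5.36% had such a p without the block and 7.17% with it. WT and KO mice of the same time and letter had correlations of -0.038 to 0.225 over all genes, over 0.1 for 9 of 18 pairs. In 15 of 18 cases the THRB WT mouse correlated best with the KO mouse of its own letter, and in 13 of 18 pairs the animal numbers in the labels differed by at most 3, which hints at a shared origin. The labels state none, and whether the letters pair the mice is not settled. The fit without the block was kept, and its p-values take no account of such a pairing.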
